A study of Mus musculus with 12 samples.

Results

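Mouse pre-B leukemia cells carrying a short hairpin RNA against Phf6 (KD) were compared with Phf6 wild-type cells (WT), with transcript levels taken from RNA-seq. The comparison uses 6 of the 12 libraries of the series, 3 labelled KD and 3 labelled WT, and takes every gene that passes a low-count filter, which left 12335 of the 23224 genes in the table. All groups are C57BL/6J pre-B leukemia cells that were transformed with BCR-ABL1 and lack p19, the product of the alternative reading frame of Cdkn2a. The labels name no control hairpin for the WT cells. Cells labelled Phf6 null, made with guide RNA sg1 or sg4 (KO_sg1 and KO_sg4, 3 libraries each), entered the same statistical model and serve here only to show where KD differs. Whether replicate libraries come from separate cultures is not stated in the labels, nor how many transduced lines stand behind the KD group, so each p-value is set against a spread among libraries that may be purely technical.

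PHF6 is a chromatin protein with PHD-like zinc fingers. It is encoded on the X chromosome, resides largely in the nucleolus and nucleoplasm, and has been found in a complex with the NuRD chromatin remodeller. Its gene is mutated in T-cell acute lymphoblastic leukemia and in some myeloid leukemias. Pre-B cells carry a pre-B cell receptor made of the immunoglobulin heavy chain, the surrogate light chain (Igll1 and Vpreb1) and the signalling chains Cd79a and Cd79b. They depend on transcription factors such as Pax5, Ebf1, Tcf3 and Ikzf1, and BCR-ABL1 supplies a constitutive tyrosine kinase signal. The title of the series asks whether PHF6 maintains B-cell identity in this leukemia.

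Estimated counts summed to between 26286540 and 30580071 in the WT libraries and to between 23179952 and 28524657 in the KD libraries, so that 3 counts, taken as the floor for a gene at 0, correspond to 0.0981 to 0.129 CPM, the unit in which all libraries are brought to the same total. Levels below are CPM after scaling with TMM factors, and values after ± are standard errors of log2 fold changes unless named as SD. Replicate libraries were not copies of each other: chi-square divided by its degrees of freedom was 12.9 to 55.5 between pairs of WT libraries and 3.36 to 5.97 between pairs of KD libraries, where 1 is sampling noise. The sum includes the ribosomal RNA precursor Rn45s, at 0.915% to 3.94% of counts in WT and 0.665% to 1.28% in KD. This gene alone can make up much of the value, and the value without it was not computed. In a principal component analysis of all 12 libraries, component 1 held 61.8% of the variance and placed the KD libraries at -85.8 to -84.9, the WT libraries at -16.9 to -14.9 and the KO libraries at 45.9 to 52.8. The summed level of 4 sex-linked genes of the Y chromosome was 76.5 to 88.3 CPM in WT, 100 to 105 CPM in KD and at most 0.147 CPM in the KO libraries.

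Phf6 itself, the targeted gene, was measured at 34.2, 33.9 and 35.3 CPM in the WT libraries and at 9.08, 8.98 and 8.29 CPM in the KD libraries. Every KD library lay below every WT library. Phf6 fell by 1.97 ± 0.12 on the log2 scale, a 3.92-fold lower level (edgeR quasi-likelihood test, adjusted p = 2.32e-09). The mean level was 3.40 CPM in KO_sg1 and 36.6 CPM in KO_sg4, where the transcript was near the WT level. Cdkn2a, the locus named by the p19-null genotype, which also encodes the cell cycle inhibitor p16, read 84.6, 80.9 and 75.8 CPM in WT and 35.7, 34.2 and 32.7 CPM in KD. Its log2 difference was -1.24 ± 0.12 (edgeR adjusted p = 3.99e-07). Its neighbour Cdkn2b, which encodes the inhibitor p15, was higher in KD by 1.65 on the log2 scale.

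**Figure D1:**
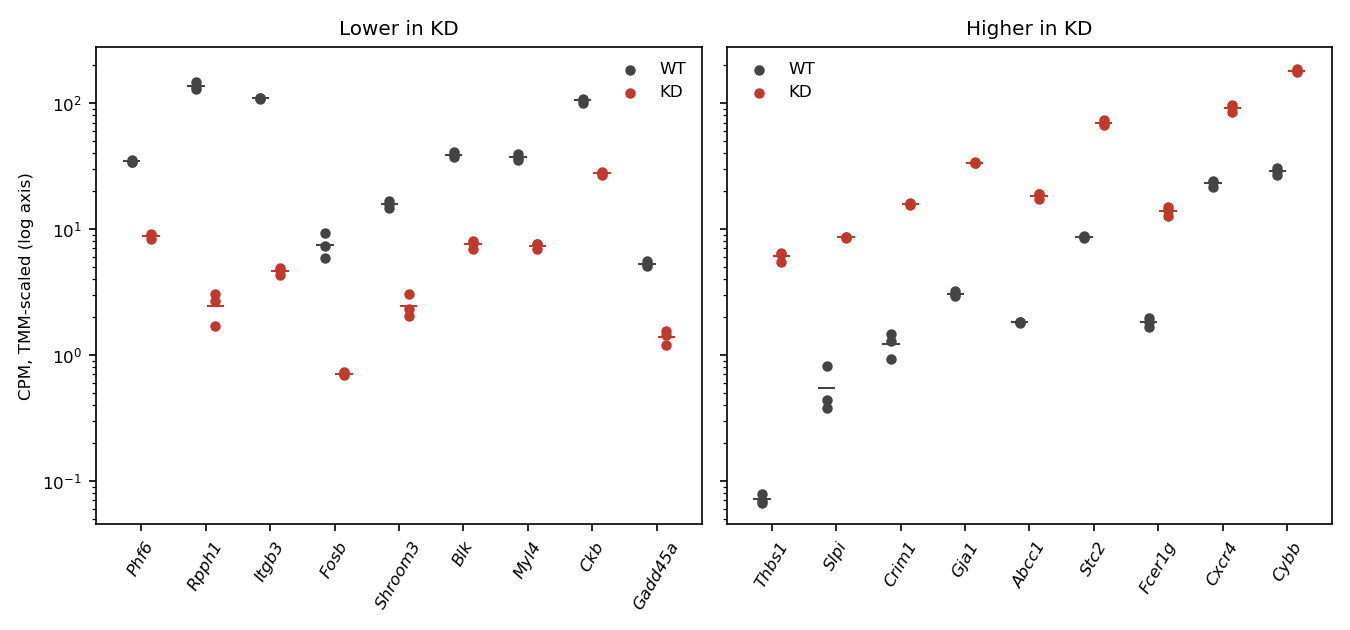
Levels of Phf6, of other genes that were lower in KD (left) and of genes that were higher in KD (right), in TMM-scaled CPM on a log axis; each point is 1 of 3 WT (grey) or 3 KD (red) libraries and each short line a group mean. Phf6 stood at 33.9 to 35.3 CPM in WT and 8.29 to 9.08 CPM in KD, and the groups do not overlap at any gene drawn.

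The KD and WT libraries differed at most of the genes measured. Of 12335 genes tested, 9567 (77.6%) passed an adjusted p of 0.05, with 4583 (37.2%) higher and 4984 (40.4%) lower in KD. Differences of at least 2-fold were found in 26.7% of the genes tested, of which 2333 (18.9% of those tested) were higher and 966 (7.83%) lower, and 3044 of the called genes differed by less than 1.5-fold. All 3 KD libraries lay above all 3 WT libraries at 5035 genes (40.8%) and below them at 5389 genes (43.7%). The median log2 difference over all genes was -0.01, and the quartiles were -0.59 and 0.75. With library totals in place of TMM factors that median moved to 0.21 and the share of calls that were higher in KD moved from 47.9% to 59.7%, so directions below are relative to the bulk of the genes. In these bulk RNA samples, fewer cells of a type and less RNA per cell cannot be told apart.

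The direction of a gene's difference went with whether its protein carries a strongly hydrophobic stretch. Such stretches, about the length of a membrane-spanning helix, mark most membrane proteins and the signal peptides of secreted proteins, whose mRNAs are as a rule translated at the endoplasmic reticulum. For 11520 of the 12335 genes tested (93.4%) a mean Kyte-Doolittle hydropathy of the most hydrophobic 19 residues could be computed, where higher values are more hydrophobic. Of 2296 genes at 2.0 or above, 79.5% were higher in KD and 6.75% lower, with a median log2 difference of 1.15 and quartiles of 0.59 and 1.48. Of 7670 genes below 1.6, 21.5% were higher and 55.0% lower, with a median of -0.32. Genes between these values had a median of 0.19, and the 815 genes without a score, which code for no protein or could not be matched to the annotation, had a median of 0.53. In KO_sg1 and KO_sg4 against WT the medians of the most hydrophobic class were -0.11 and -0.10.

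**Figure D2:**
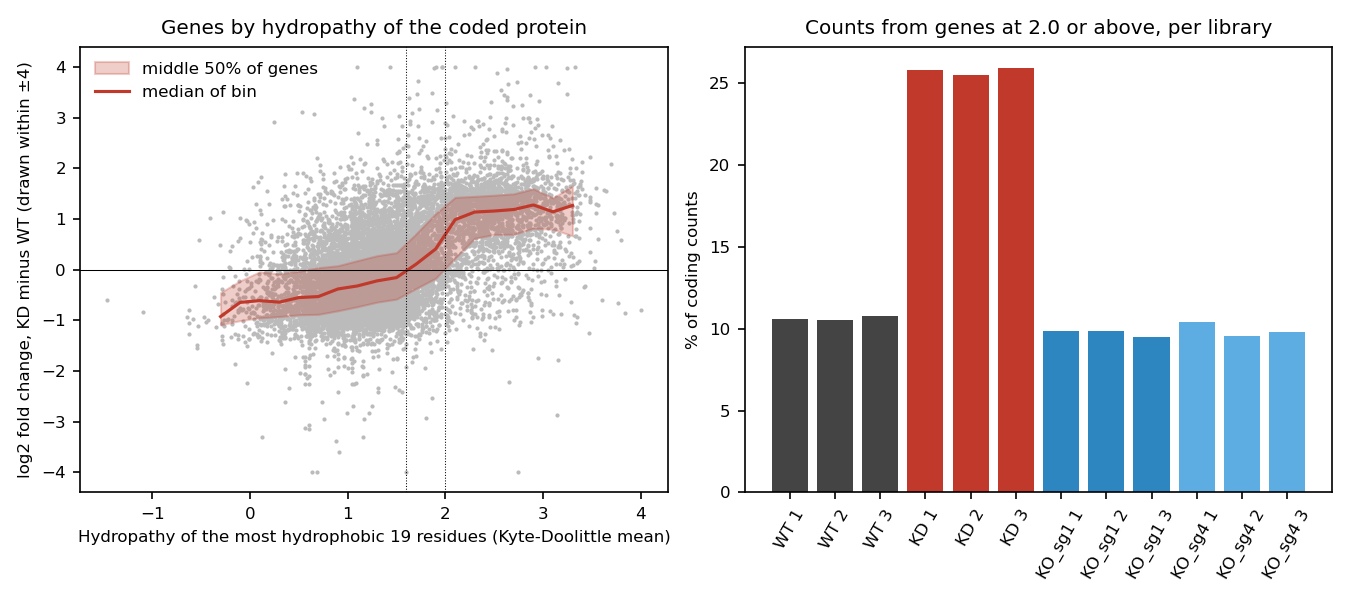
Left, log2 difference between KD and WT by the hydropathy of the coded protein (mean of its most hydrophobic 19 residues), 1 grey point per gene, with the median and the quartiles per bin in red and dotted lines at 1.6 and 2.0; medians ran from -0.60 in the lowest decile of genes to 1.21 in the highest. Right, the percentage of coding counts from genes at 2.0 or above, 1 bar per library, at 25.5% to 25.9% in KD against 10.5% to 10.8% in WT.

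The same split showed in every library. Genes coding for the most hydrophobic class took 10.6%, 10.5% and 10.8% of coding counts in the WT libraries, 25.8%, 25.5% and 25.9% in the KD libraries, and 9.51% to 10.4% in the KO libraries. The KD mean of 25.7% ± 0.232 (SD, n = 3) lay above the WT mean of 10.6% ± 0.109 (SD, n = 3) with an exact two-sided permutation p of 0.1, the smallest that 3 against 3 libraries allow. The difference also varied with the position of the stretch. Where it lay only at the start of the protein, as in a signal peptide, the median log2 difference was 1.18 over 311 genes, and where it was internal or repeated it was 1.18 over 1719 genes. Where it lay only at the end of the protein, as in tail-anchored proteins that are inserted after translation, the median was 0.58 over 257 genes, of which 54.5% were higher and 28.0% lower.

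Other gene properties followed the difference less closely. Across genes, which are not independent replicates, Spearman's correlation of the log2 difference was 0.51 with hydropathy, 0.19 with transcript length, 0.06 with GC content and -0.34 with mean abundance. By decile of abundance the median ran from 0.82 in the lowest to -0.69 in the highest. Among genes below a hydropathy of 1.6 it ran from 0.48 to -0.82. Abundance was not part of any trend removed here, so the list values below include it. Median differences by autosome and X ran from -0.18 to 0.11. The trend with hydropathy held 31.3% of the variance of the log2 differences, so most of the variance lay outside it. When the trend was removed, a setting chosen after seeing the data, 8319 of the 11520 genes were called, 3767 (32.7%) higher and 4552 (39.5%) lower, of which 1001 were at least 2-fold higher and 604 at least 2-fold lower. Without its removal the same genes gave 9020 calls, with 2099 and 924 at these sizes. What sets the trend was not tested. Per the labels' protocols all groups were prepared alike, but the KD libraries alone carry the split. In them Rpph1, an RNA without a poly(A) tail, was also far lower, while 1 of 4 tested RNAs of this kind was higher. A difference in how the KD RNA or libraries were prepared cannot be told apart from an effect of the hairpin, and this bears on nearly every fold difference given here. Beside the gene lists below, the counts with the trend removed are given, since most membrane proteins were higher in KD.

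**Figure D3:**
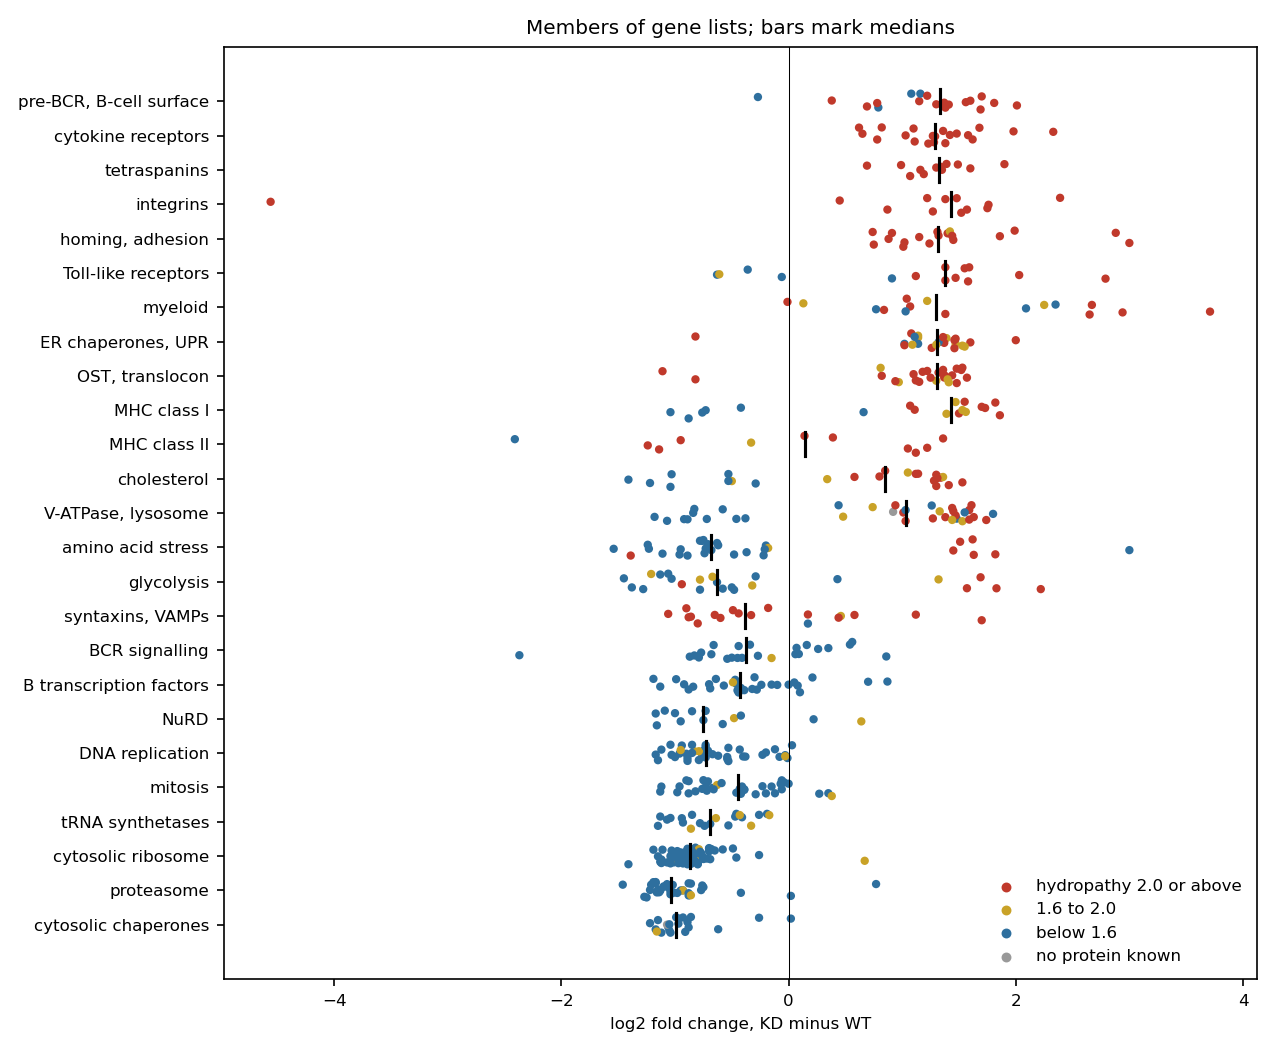
Log2 difference between KD and WT for the tested members of 25 gene lists, 1 point per gene coloured by the hydropathy of its protein, with a black bar at each list's median. Members of the receptor lists lie mostly to the right (cytokine receptors, median 1.29), and those of the proteasome (median -1.03) and the cytosolic ribosome (median -0.87) mostly to the left, with Itgb3 at -4.56 apart from the other integrins.

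Genes of the pre-B cell receptor and the B-cell surface were higher in KD. Of 20 tested members of 23 listed, 19 rose and 1 fell, with a median log2 difference of 1.33, and 15 rose and 2 fell once the trend was removed (median 0.42). Cd79a read 1612, 1631 and 1487 CPM in WT and 4094, 4151 and 4299 CPM in KD, with no overlap of the groups. The difference was 1.41 ± 0.10 on the log2 scale (edgeR adjusted p = 1.06e-08) and 0.54 with the trend removed. Its partner Cd79b rose by 1.37. The surrogate light chain genes Vpreb1 and Igll1 rose by 1.16 ± 0.11 and 1.15 ± 0.07. Cd38, a surface enzyme that consumes NAD, rose by 2.01 and kept 1.0 with the trend removed. Only Cd24a, which encodes a small GPI-anchored glycoprotein, fell among these genes, by 0.27, and it did not pass with library totals (-0.05).

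Transcription factors of the B lineage differed the other way. Of 30 tested members of 32 listed, 2 rose and 20 fell, with a median log2 difference of -0.43. With the trend removed, 5 rose and 13 fell (median -0.13), and with library totals in place of TMM factors 4 rose and 14 fell. All but 1 of these genes code for proteins below a hydropathy of 1.6, a class in which 55% of all genes were lower. Ikzf1, which encodes Ikaros, read 572, 564 and 592 CPM in WT and 303, 328 and 308 CPM in KD, without overlap. It fell by 0.88 ± 0.08 (edgeR adjusted p = 2.73e-07). Tcf3, which encodes the E proteins E12 and E47, read 735, 734 and 727 CPM in WT and 466, 445 and 437 CPM in KD and fell by 0.70 ± 0.06. Foxo1, a factor required for recombinase expression, fell by 0.69, and Pou2af1, the coactivator of octamer-binding factors, by 1.13. Id3, an inhibitor of E proteins, fell by 1.19, from 42.9 to 44.6 CPM in WT to 18.7 to 19.5 CPM in KD.

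Several core factors did not pass the test. Ebf1 read 61.0, 55.3 and 59.7 CPM in WT and 55.7, 61.2 and 59.1 CPM in KD, overlapping ranges with a log2 difference of -0.00 ± 0.09 (edgeR adjusted p = 0.995). Pax5, the factor that commits cells to the B lineage, read 127, 133 and 120 CPM in WT and 106, 101 and 96.5 CPM in KD. Its 3 KD libraries lay below its 3 WT libraries, and the difference of -0.32 ± 0.17 had an edgeR adjusted p of 0.0925 in the model of 12 libraries and of 4.09e-06 when only the 6 KD and WT libraries were fitted. Lef1, a nuclear partner of beta-catenin, differed by 0.05 (edgeR adjusted p = 0.704), but was called higher once the trend was removed (0.45, adjusted p = 0.00355). Bcl6, a repressor induced when BCR-ABL1 signalling is blocked, rose by 0.87. Myc rose by 0.15 ± 0.05 (edgeR adjusted p = 0.0122), a difference that no longer passed without WT replicate 2 (0.14, adjusted p = 0.0551) or with no filter on low counts (0.10, adjusted p = 0.185).

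Signalling genes downstream of the receptor were lower about as often as other genes for soluble proteins. Of 24 tested members, 4 rose and 13 fell, with a median of -0.38 (9 rose and 12 fell with the trend removed), and 23 of them belong to the class below 1.6, in which 55% of genes were lower. Blk, a B-cell kinase of the Src family, read 38.8, 41.1 and 37.1 CPM in WT and 7.68, 8.0 and 6.93 CPM in KD. It was among the 15 lowest named genes, with a fall of 2.37 ± 0.12 (edgeR adjusted p = 3.52e-10). Another kinase of the same family, Lyn, rose by 0.86, and the adaptor Bank1 fell by 0.50. Among 12 genes of V(D)J recombination 3 rose and 7 fell (3 and 6 with the trend removed). The recombinase gene Rag1 read 26.3, 26.0 and 29.4 CPM in WT and 56.0, 59.3 and 60.4 CPM in KD and rose by 1.11 ± 0.12 (edgeR adjusted p = 1.54e-06), while its partner Rag2 differed by 0.06 (adjusted p = 0.662). The end-joining factor Xrcc4 and the DNA-bending protein gene Hmgb1, a cofactor of the recombinase, fell by 1.34 and 1.30.

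Antigen presentation genes split by class. Of 18 MHC class I and peptide-loading genes, 13 rose and 5 fell, with a median of 1.43, and 11 rose and 5 fell with the trend removed (median 0.46). H2-K1, a classical class I heavy chain, read 502.6, 490.3 and 479.4 CPM in WT and 1698, 1574 and 1626 CPM in KD, a rise of 1.73 ± 0.07. The peptide transporter genes Tap1 and Tap2 rose by 1.82 and 1.86 and the light chain gene B2m by 1.56. The 5 members that fell all code for proteins below a hydropathy of 1.6, among them the immunoproteasome subunit Psmb10 at -1.04. Read assignment among the near-identical H2-Q genes is uncertain, including H2-Q7, which was among the 15 highest genes.

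Of 11 MHC class II genes, 5 rose and 5 fell, and with the trend removed 2 rose and 7 fell (median -0.66). Ciita, the transactivator of this gene family, read 1.99, 2.17 and 1.37 CPM in WT and 0.250, 0.377 and 0.411 CPM in KD. The groups did not overlap, and the fall was 2.41 ± 0.27 (edgeR adjusted p = 1.56e-06). H2-Ab1, a class II beta chain present at low level, fell by 1.24, whereas H2-Ob, a chain of the loading modulator H2-O, rose by 1.36. Cd74, the invariant chain, read 258, 254 and 231 CPM in WT and 205, 190.2 and 197 CPM in KD and fell by 0.33 ± 0.06, a call that was lost with library totals (-0.11, edgeR adjusted p = 0.0962). In the KO groups its means were 9.80 and 13.4 CPM, and KD lay above their mean by 4.11 on the log2 scale.

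Cytokine receptors, homing receptors and integrins were higher in KD, and fewer of them were called higher once the trend was removed. All 20 tested cytokine receptor genes rose (median 1.29; 11 rose and 3 fell with the trend removed). Il7r, which encodes the receptor chain for the main growth factor of pre-B cells, read 29.6, 29.7 and 30.9 CPM in WT and 116, 119 and 120 CPM in KD. It rose by 1.98 ± 0.08 (edgeR adjusted p = 6.76e-11) and by 0.82 with the trend removed. Of 18 homing and adhesion receptors 16 rose and none fell (median 1.32), against 9 and 1 with the trend removed (median 0.26). The chemokine receptor Cxcr4, which retains precursors in the bone marrow, read 23.6, 21.6 and 24.1 CPM in WT and 85.6, 92.6 and 96.8 CPM in KD and rose by 1.99 ± 0.08 (edgeR adjusted p = 8.76e-11).

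Of 12 integrin chains 10 rose and 1 fell (median 1.43), and with the trend removed 5 rose and 3 fell (median 0.34). The chain that fell in the unadjusted comparison did so by more than any other differed. Itgb3, which pairs with the alpha chains of the vitronectin receptor and of platelets, read 108, 110 and 110.4 CPM in WT and 4.71, 4.94 and 4.27 CPM in KD. It was 23.6-fold lower, a log2 difference of -4.56 ± 0.08 (edgeR adjusted p = 8.43e-14). Its alpha partner Itgav rose by 1.76. Itgb3 means were 1.51 CPM in KO_sg1 and 0.123 CPM in KO_sg4. The GTPases and regulators that activate integrins through Rap1 gave 4 higher and 9 lower of 16, with or without the trend, and 14 of them belong to the class in which 55% of genes were lower. Rap1a fell by 1.37.

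Chaperones and quality-control genes of the endoplasmic reticulum were higher, also with the hydropathy trend removed. These genes are the targets of the unfolded protein response, in which the sensor kinase encoded by Ern1 splices Xbp1 and the factors Xbp1 and Atf6 bind endoplasmic reticulum stress elements in promoters. Of 24 genes, 23 rose and 1 fell, with a median log2 difference of 1.31, and 21 rose and 1 fell with the trend removed (median 0.82). Only 12 of the 24 score 2.0 or above, and the 4 below 1.6 all rose (median 1.13). A trend in hydropathy therefore takes less from this list than from receptor lists. Before its removal the median equalled that of the translocon and oligosaccharyl transferase genes (1.31). Hspa5, the main luminal chaperone, read 478.9, 466.2 and 480.6 CPM in WT and 1424, 1303 and 1386 CPM in KD, without overlap. It rose by 1.53 ± 0.06 (edgeR adjusted p = 7.21e-11) and by 1.22 with the trend removed, and it lay above the KO mean by 1.04. Calr, Hsp90b1 and Pdia6, further luminal chaperones and folding enzymes, rose by 1.39, 1.12 and 1.47, and Ern1 by 2.00. The member that fell was Sec61b, a small tail-anchored subunit of the translocation channel, by 0.82 ± 0.11. Sec61g, the other small tail-anchored subunit, fell by 1.11, while 24 of 26 genes of the translocon and oligosaccharyl transferase rose (20 with the trend removed, when 3 fell).

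The promoters of these chaperone genes are shown because many carry the stress element. The searched motif was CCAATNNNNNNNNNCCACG on either strand, in the 250 bases before the gene's start (RefSeq, build GRCm38.p6), and its letters are in capitals in the sequences, each printed 5′ to 3′ on the strand of its gene. Hspa5 lies on the plus strand at chr2:34771840-34772089 and Pdia6 on the plus strand at chr12:17266339-17266588. Calr lies on the minus strand at chr8:84846932-84847181 and Hsp90b1, with 2 copies, on the minus strand at chr10:86705445-86705694.
Hspa5: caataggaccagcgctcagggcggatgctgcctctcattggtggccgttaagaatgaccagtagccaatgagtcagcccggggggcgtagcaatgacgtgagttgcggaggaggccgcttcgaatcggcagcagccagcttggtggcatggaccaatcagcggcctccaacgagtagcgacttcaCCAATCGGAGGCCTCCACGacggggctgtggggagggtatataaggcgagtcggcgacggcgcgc
Pdia6: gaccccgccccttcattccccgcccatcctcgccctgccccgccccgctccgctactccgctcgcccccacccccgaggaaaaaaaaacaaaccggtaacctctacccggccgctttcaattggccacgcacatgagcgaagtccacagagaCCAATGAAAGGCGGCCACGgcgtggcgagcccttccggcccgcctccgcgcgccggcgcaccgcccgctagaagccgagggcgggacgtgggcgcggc
Calr: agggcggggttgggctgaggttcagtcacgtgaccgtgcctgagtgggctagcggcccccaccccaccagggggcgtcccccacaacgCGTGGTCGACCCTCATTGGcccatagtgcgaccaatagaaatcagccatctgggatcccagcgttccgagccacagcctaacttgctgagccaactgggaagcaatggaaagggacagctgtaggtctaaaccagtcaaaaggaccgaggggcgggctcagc
Hsp90b1: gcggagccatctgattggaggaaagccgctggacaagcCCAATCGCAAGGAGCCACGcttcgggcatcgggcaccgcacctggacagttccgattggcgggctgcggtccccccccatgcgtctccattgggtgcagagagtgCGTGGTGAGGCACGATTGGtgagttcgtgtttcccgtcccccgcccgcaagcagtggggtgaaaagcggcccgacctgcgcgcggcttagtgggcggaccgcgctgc
The motif begins 65 bases before the start in Hspa5, 98 in Pdia6 and 162 in Calr, and the first copy in Hsp90b1 begins 212 bases before it. It was present in 37 of 32851 promoters of the table (0.113%), in 14 of 11013 promoters of tested genes (0.127%) and in 8 of the 21 chaperone and stress genes with an entry (38.1%). Those 8 genes all rose, with a median of 1.32, and the 13 without it gave 12 higher and 1 lower with a median also of 1.32. Outside the list, 6 tested genes carried the motif, of which 4 rose and 1 fell (median 0.91). A match describes the letters and not binding.

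Genes of the amino acid stress response, driven by the factor Atf4, were mostly lower and split by hydropathy. Of 29 members 6 rose and 21 fell, with a median of -0.68 (7 rose and 20 fell with the trend removed). Of 6 members at 2.0 or above 5 rose and 1 fell (median 1.56). Of 22 below 1.6, a class in which 55% of all genes were lower, 1 rose and 20 fell. Atf4 read 802, 792 and 757 CPM in WT and 337, 331 and 328 CPM in KD, a fall of 1.24 ± 0.07. Mthfd2, a mitochondrial enzyme of the folate cycle, fell by 1.54. The cystine transporter gene Slc7a11 read 14.9, 15.3 and 18.4 CPM in WT and 6.74, 5.54 and 6.17 CPM in KD and fell by 1.39 ± 0.19, although it codes for a membrane protein; with the trend removed its value was -2.44. The subunits of the large neutral amino acid transporter, Slc7a5 and Slc3a2, rose by 1.51 and 1.63. All 21 aminoacyl-tRNA synthetase genes tested fell, with a median of -0.69 (19 fell with the trend removed). The highest member of the stress list, Stc2, a secreted glycoprotein, stood at 8.69, 8.84 and 8.52 CPM in WT and at 73.8, 68.0 and 66.9 CPM in KD and rose by 3.00 ± 0.08 (edgeR adjusted p = 3.12e-11).

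Enzymes of one metabolic pathway differed in opposite directions. Of 23 cholesterol synthesis and uptake genes 15 rose and 8 fell (10 and 9 with the trend removed). All 12 members at a hydropathy of 2.0 or above rose, and all 7 below 1.6 fell. Dhcr7, a membrane enzyme that makes cholesterol in the last step, read 84.2, 79.5 and 81.1 CPM in WT and 234, 230.3 and 243 CPM in KD and rose by 1.53 ± 0.05. Idi1, a soluble isomerase early in the pathway, read 94.6, 90.3 and 93.4 CPM in WT and 35.5, 36.2 and 32.9 CPM in KD and fell by 1.41 ± 0.08. Both are targets of the same sterol-regulated factors. Sqle, the membrane-bound epoxidase, rose by 1.41.

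Glycolysis showed the same arrangement, with 6 genes higher and 17 lower of 23, with or without the trend. The glucose transporter Slc2a1 read 162, 157 and 152 CPM in WT and 473, 454 and 471 CPM in KD and rose by 1.57 ± 0.05, and the lactate exporter Slc16a3 rose by 2.22. The cytosolic enzymes Gapdh and Tpi1 fell by 1.38 and 1.45. Gapdh stood at 6348, 6525 and 5935 CPM in WT and 2436, 2437 and 2351 CPM in KD. Ldha, which converts pyruvate to lactate, fell by 0.94 and is an exception to the trend, since its protein scores 2.27 for hydropathy without being a membrane protein; with the trend removed its value was -1.89.

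The proton pump that acidifies lysosomes divided along its own structure. Its membrane sector V0 had 7 of 8 genes higher (median 1.02) and its cytosolic sector V1 had 8 of 9 lower (median -0.84). With the trend removed, 2 of 7 V0 genes rose and 2 fell, and 8 of 9 V1 genes fell. Atp6v0c, the ring subunit in the membrane, which has near-identical pseudogene copies that could share its reads, read 104, 81.8 and 94.3 CPM in WT and 272, 278 and 292 CPM in KD and rose by 1.59 ± 0.11. Atp6v1e1, a stalk subunit of the cytosolic sector, read 70.5, 70.8 and 67.2 CPM in WT and 30.1, 30.7 and 31.0 CPM in KD and fell by 1.18 ± 0.06. Atp6v0d1, a V0 subunit with no membrane-spanning stretch, fell by 0.46. Atp6v1g2 rose by 1.48 against the direction of its sector. The lysosomal protease Ctsb, a secretory protein with a hydropathy of only 1.25, read 142, 149 and 147 CPM in WT and 512, 497 and 515 CPM in KD and rose by 1.8.

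**Figure D4:**
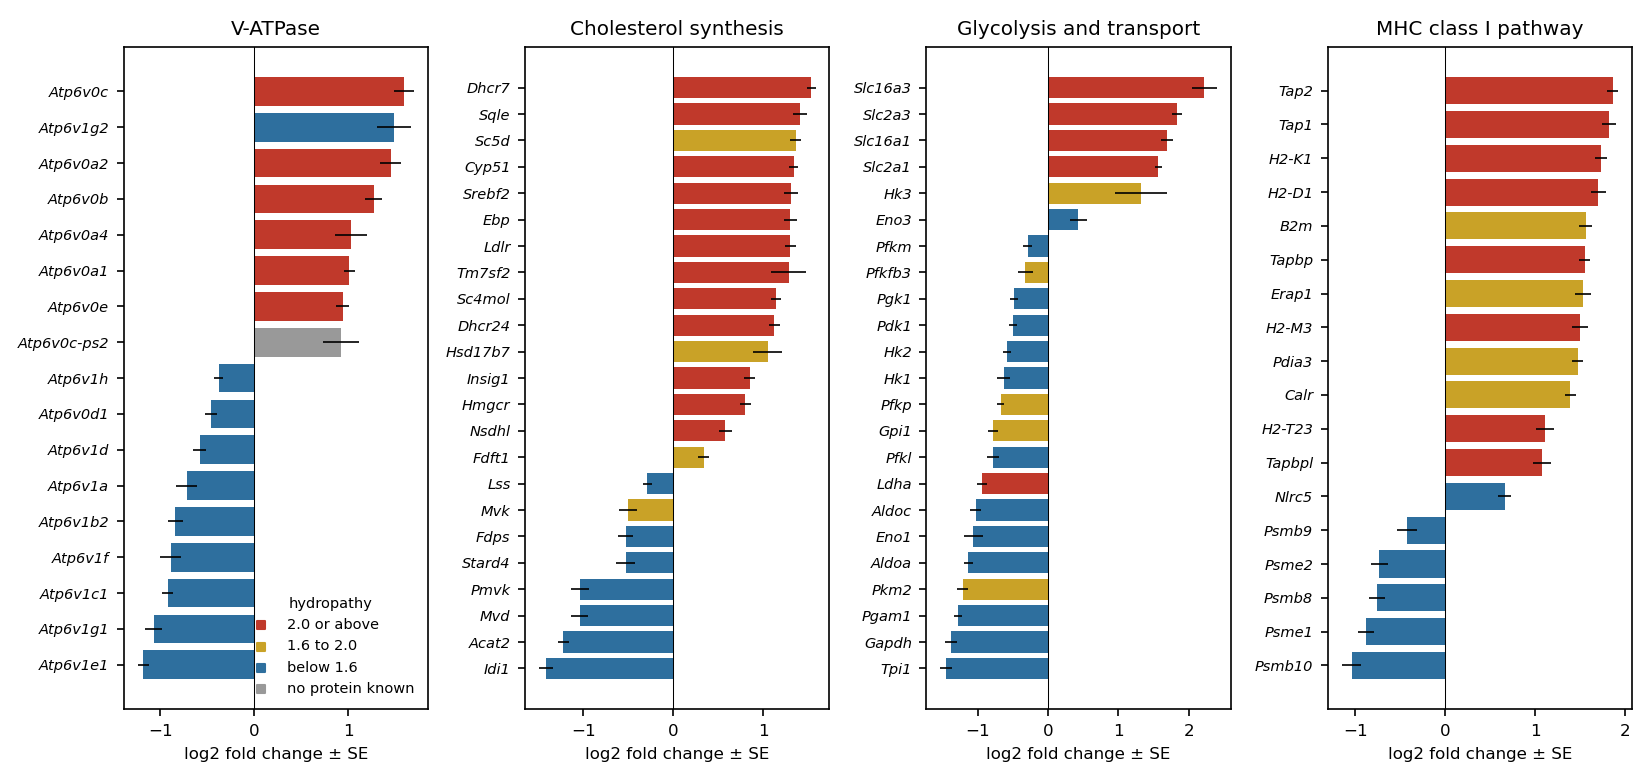
Log2 difference between KD and WT for the members of the proton pump, cholesterol synthesis, glycolysis and the MHC class I pathway; bars are single genes, coloured by the hydropathy of the protein, and error bars are standard errors. In each panel red bars, at a hydropathy of 2.0 or above, lie to the right apart from Ldha at -0.94, and most blue bars, below 1.6, lie to the left, down to -1.45 for Tpi1.

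Transporter families repeated the split. Of 24 tested ABC transporters with membrane domains 23 rose and none fell, and all 4 members of the family that lack such domains fell, against 10 higher and 4 lower, and 3 lower, with the trend removed. Among solute carriers outside the mitochondrial family 151 of 171 rose and 5 fell, with a median of 1.32, and with the trend removed 82 rose and 22 fell of 169 (median 0.26). The mitochondrial carriers, which are membrane proteins made on free ribosomes and imported afterwards, gave 15 higher and 14 lower of 36, with a median of 0.16 (8 and 19 with the trend removed). Syntaxins and vesicle-associated membrane proteins, most of them tail-anchored, gave 6 higher and 11 lower of 18 (median -0.38), although 16 of the 18 score 2.0 or above, and 2 higher and 13 lower with the trend removed. Glycosylation and GPI-anchor enzymes had 40 of 45 members higher (median 1.26; 26 rose and 8 fell with the trend removed). These groupings, and the V0 and V1 lists, were made after values had been seen.

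**Figure D5:**
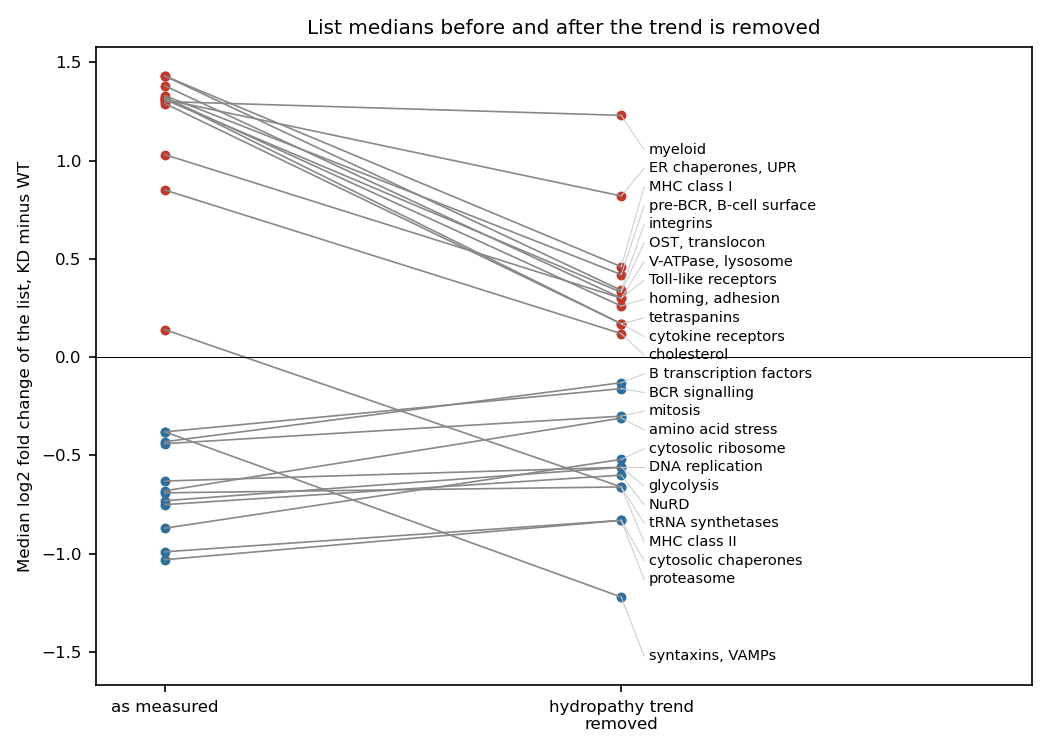
Median log2 difference between KD and WT of 25 gene lists, 1 point per list joined by a line (red where the measured median is above 0, blue where below), before and after removal of the trend with hydropathy. Receptor families move toward 0 (cytokine receptors from 1.29 to 0.17). Endoplasmic reticulum chaperones (from 1.31 to 0.82) and myeloid markers (from 1.30 to 1.23) move less. The trend rests on hydropathy alone. Only 12 of 24 chaperone genes and 9 of 16 myeloid genes score 2.0 or above, against all 20 cytokine receptors.

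Machinery of gene expression, respiration and proliferation, most of it soluble, was lower in KD. Of 79 cytosolic ribosomal protein genes, 77 fell and none rose (median -0.87; 68 fell with the trend removed), with the reservation that processed copies can share their reads. Mitochondrial ribosomal proteins fell at 74 of 76 genes (median -0.84), the proteasome at 36 of 38 (median -1.03), and heat shock proteins and chaperonins at 20 of 21 (median -0.99). With the trend removed these lists had 67, 36 and 18 genes lower. Among all genes below a hydropathy of 1.6 the median was -0.82 in the most abundant decile. It was -0.79 in the decile with the shortest transcripts. The proteasome gene Psma2 read 218, 217 and 204 CPM in WT and 78.5, 76.2 and 77.3 CPM in KD. The cytosolic chaperone Hspa8 read 3805, 3750 and 3592 CPM in WT and 1704, 1658 and 1655 CPM in KD and fell by 1.15, the opposite of its luminal relative Hspa5. The nuclear-encoded respiratory chain, whose proteins are imported into the mitochondrial inner membrane, had 61 of 78 genes lower and 5 higher (median -0.66; 57 and 8 with the trend removed). Its 9 members at a hydropathy of 2.0 or above gave 5 lower and none higher.

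DNA replication genes fell at 34 of 40 members and rose at none (median -0.73; 32 fell and 6 rose with the trend removed). All 40 were also lower in KD than in the mean of the KO groups. Of 36 mitosis genes 25 fell and 3 rose (23 and 9 with the trend removed). Among them was Ccna2, the cyclin of S phase and mitotic entry, which fell by 1.13. Of 13 NuRD subunits 11 fell and 1 rose (median -0.75; 11 and 1 with the trend removed). The histone-binding subunit Rbbp4 read 350.4, 351 and 343 CPM in WT and 152, 155 and 157 CPM in KD and fell by 1.17 ± 0.06, and Chd3, one of the remodelling ATPases, was the subunit that rose, by 0.64. Of 32 nucleolar and RNA polymerase I genes 24 fell and 3 rose (median -0.55; 23 and 6 with the trend removed). Npm1, the main nucleolar chaperone, fell by 1.32 and the methyltransferase Fbl by 1.25. Most members of these 4 lists are below a hydropathy of 1.6: 36 of 40 for replication, 34 of 36 for mitosis, 11 of 13 for NuRD and 22 of 32 for the nucleolus. In that class 55% of all genes were lower, and its median was -0.82 in the most abundant decile.

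RNAs that lack a poly(A) tail differed strongly and unevenly. Rpph1, the RNA of ribonuclease P, read 130.5, 136 and 146 CPM in WT and 3.03, 1.70 and 2.66 CPM in KD, a 55.0-fold lower level (log2 difference -5.78 ± 0.29, edgeR adjusted p = 3.34e-10). It was 291.5 CPM on average in KO_sg1 and 175.3 CPM in KO_sg4. Rmrp, a related RNA, read 7.93, 1.0 and 17.2 CPM in WT and 2.5, 0.151 and 3.58 CPM in KD, overlapping ranges. Its difference of -2.0 ± 0.84 (edgeR adjusted p = 0.0428) is not a firm call: it did not pass with library totals, DESeq2, limma-voom or the replicate block, nor without KD replicate 1 (-2.10), KD replicate 2 (-1.47), WT replicate 1 (-2.06) or WT replicate 3 (-1.05). The ribosomal RNA precursor Rn45s took 2.43%, 0.915% and 3.94% of counts in WT and 1.05%, 0.665% and 1.28% in KD, and its fall of 1.5 ± 0.5 was lost without KD replicate 2 (-1.24) or WT replicate 3 (-0.97). Replication-dependent histone mRNAs, which end in a stem-loop in place of a poly(A) tail, fell at 33 of 59 genes and rose at 2 (median -1.35; 21 and 3 with the trend removed), and their near-identical copies make the single values uncertain. All 59 code for proteins below a hydropathy of 1.6, a class in which 55.0% of genes were lower, with a median of -0.32. The share of histone genes that fell is thus near that of their class. The library kit selects mRNA, and how completely RNAs without a tail were removed from each library was not tested.

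Long RNAs that stay in the nucleus, a list made after values were seen, were higher or not called. Of 6 such RNAs 4 rose and none fell (median 0.89). Of the 815 genes without a hydropathy score 49.6% were higher and 17.5% lower, with a median of 0.53. Mir17hg, the precursor of the miR-17 cluster, read 9.48, 10.7 and 11.1 CPM in WT and 77.2, 73.9 and 76.2 CPM in KD and rose by 2.86 ± 0.15. Neat1, the scaffold of paraspeckles, read 24.1, 27.5 and 25.3 CPM in WT and 121, 115 and 117 CPM in KD and rose by 2.20 ± 0.10. Malat1 differed by 0.09 (edgeR adjusted p = 0.728) and passed only when the 6 KD and WT libraries were fitted alone (0.12, adjusted p = 0.0177).

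Markers of other lineages were read as a check on the labelled cell type, whose own markers Cd79a, Cd79b and Vpreb1 were all abundant. Of 16 tested myeloid genes 14 rose and none fell, with a median of 1.30, and of 1.23 with the trend removed. Only 9 of the 16 score 2.0 or above for hydropathy, and the 4 below 1.6 all rose (median 1.56). The trend therefore takes little from this list. Their summed level was 154 to 161 CPM in WT and 470 to 495 CPM in KD. Cybb, the catalytic subunit of the phagocyte oxidase, read 29.1, 27.0 and 30.6 CPM in WT and 177, 178 and 188 CPM in KD and rose by 2.65 ± 0.09. The macrophage growth factor receptor Csf1r read 1.68, 1.30 and 1.49 CPM in WT and 9.21, 9.81 and 9.53 CPM in KD and rose by 2.67, and lysozyme, Lyz2, rose by 2.09. The 2 members that did not pass differed by at most 0.13. In the KO groups the median difference of the myeloid list from WT was -1.15 and -1.67. A member that passed the filter only through the group where it is high had to differ, so these counts describe the genes that passed.

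Other lineages moved less evenly. Of 15 T-cell genes 5 rose and 3 fell (4 and 4 with the trend removed). Their summed level was 243 to 255 CPM in WT and 540 to 558 CPM in KD, most of it from the adhesion receptor Cd2, at 204, 201 and 191 CPM in WT and 469, 459.6 and 484 CPM in KD, whose difference was 0.08 with the trend removed. Cd5, which some B cells also carry, was higher by 2.15 and the kinase gene Lck lower by 1.03. Of 13 listed natural killer and innate lymphoid genes only 2 passed the filter. Both rose, with Klrd1 higher by 2.99, but the list summed to only 1.67 to 2.31 CPM in WT. The median of these 2 genes also lay above WT in KO_sg1 and KO_sg4, by 1.65 and 3.64. As with the myeloid list, these counts describe only genes that passed the filter. Of 6 tested erythroid and megakaryocyte genes 2 rose and 1 fell. The list summed to 62.4 to 70.6 CPM in WT and 44.8 to 46.8 CPM in KD. Most of the sum came from Hbb-b2, a globin gene, which fell by 0.90 from a mean of 54.6 to 29.3 CPM, while Itga2b rose by 1.48. Of 5 tested stem and progenitor genes 1 rose and 2 fell, and that list summed to 163 to 168 CPM in WT and 119 to 122 CPM in KD. Of 5 stromal and epithelial genes 4 rose, and Krt18, a keratin at 1.68 to 2.03 CPM in WT, fell to at most 0.113 CPM. Whether cells of another type contribute to the differences was not tested.

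Of the called genes that averaged 5 CPM or more in KD or WT, the 15 with the largest rises lay between 2.93 and 6.33 on the log2 scale, and most were at a low level in WT. Thbs1, the matrix glycoprotein thrombospondin 1, read 0.0687, 0.0669 and 0.0782 CPM in WT, 6 counts in all, and 5.49, 6.41 and 6.36 CPM in KD, 547 counts, with no count in either KO group. Its log2 difference was 6.33 ± 0.25 (edgeR adjusted p = 4.47e-09). Slpi, a secreted inhibitor of leukocyte proteases, rose by 3.99 ± 0.24 from 0.378, 0.435 and 0.821 CPM to 8.64, 8.64 and 8.45 CPM. Gja1, the gap junction protein connexin 43, rose by 3.45 ± 0.13 and Abcc1, a drug efflux transporter, by 3.34 ± 0.13.

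Immediate early factors, which are induced within minutes of a growth signal, fell and rose. Fosb read 5.87, 7.36 and 9.34 CPM in WT and 0.686, 0.717 and 0.728 CPM in KD, a fall of 3.39 ± 0.22 (edgeR adjusted p = 5.9e-09), and Fos fell by 2.95 ± 0.23. Egr3, another immediate early factor, rose by 2.03 ± 0.25, and over the list of 21 such genes 6 rose and 8 fell with a median of 0.00, whereas 12 rose and 4 fell with the trend removed (median 0.33). Shroom3, an actin-binding regulator of cell shape, fell by 2.69, the myosin light chain gene Myl4 by 2.33, the brain-type creatine kinase gene Ckb by 1.92 and the DNA damage response gene Gadd45a by 1.91.

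Set beside the KO groups, which share the WT libraries with KD and so cannot serve as an independent repeat, KD differed from them at most genes. Direct contrasts of KD with the mean of the KO groups were called at 83.3% of the genes tested, 42.9% higher and 40.4% lower. That contrast uses the libraries of both KO groups. Contrasts with WT, with 3 libraries on each side, were called at 77.6% for KD, 38.8% for KO_sg1 and 40% for KO_sg4. A call against the KO groups gives no direction against WT. Id3, lower in KD, was higher in KO_sg1 and KO_sg4 by 1.15 and 1.21, and KD lay below their mean by a log2 difference of -2.37 ± 0.08 (edgeR adjusted p = 1.62e-12). Idi1 was likewise higher in the KO groups, by 0.96 and 1.16. Igf1, an insulin-like growth factor, was higher in all 3 groups, at 17.4, 19.5 and 20.7 CPM in the KD libraries against 3.74, 3.38 and 4.34 CPM in WT (2.33 ± 0.09), with KO means of 42.5 and 28.2 CPM. Itgb3 and Blk were lower than WT in all 3 groups, although KD lay above the KO mean by 3.42 and 2.15.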

How the data were processed

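The authors deposited estimated counts for 23224 genes named by symbol, made per the submitters' processing notes with RSEM 1.2.12 and Bowtie 1.0.1 on mm9. Gene annotation, strand and read length: not given in the sources used here. Since RSEM shares reads among similar genes, 43.1% of values are not whole, and near-identical, overlapping and antisense genes are uncertain. Per the labels' protocols, libraries came from a TruSeq mRNA kit.

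Counts were rounded. Genes kept by filterByExpr (minimum count 10) were fitted in edgeR 4.0.16 (R 4.3.3) with TMM factors and 4 group means over all 12 libraries. Two-sided quasi-likelihood tests of KD minus WT were adjusted over 12335 genes by the Benjamini-Hochberg method, with calls at 0.05. Standard errors are the absolute log2 fold change divided by the square root of F. The code was tested on simulated data. Alternatives were other scalings, no filter, DESeq2 1.42.0, limma-voom (limma 3.58.1), fits of 6 libraries or with a replicate block, left-out libraries, and, chosen after seeing the data, removal of trends with hydropathy, length and GC content. Gene lists were described by counts and medians, with no set test.

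Of the 23224 symbols, 22795 matched GENCODE annotation of GRCm38, from which protein hydropathy, transcript length and GC content were computed. The trend was removed with a spline of 6 degrees of freedom as an offset for the KD libraries. Promoters are from RefSeq.

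The members and lists were chosen with earlier results of these data known. Named genes are the 15 highest and 15 lowest called genes with a mean of at least 5 CPM, up to 4 called members per list with at least 1 CPM, and a set of lymphoid and sex-linked genes; a few genes picked this way are left out here. The lists for transporters, proton pump sectors, translocon, glycosylation, Rab, tail-anchored, initiation factor and noncoding genes were made after values were seen. So were the choices of Hsp90b1, Calr, Pdia6, Sec61b, Sec61g, Atf4, Mthfd2, Slc7a11, Slc7a5, Gapdh, Tpi1, Ldha, Atp6v0c, Atp6v0d1, Atp6v1e1, Atp6v1g2, Lyz2, Chd3, Mir17hg, Neat1, Malat1, B2m, Psmb10, Lck, Cd24a, Eef1a1 and Gas5. Intervals and floors cover counting error only.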

Additional observations from a re-analysis of the deposited data

How the results depend on the processing

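Calls of KD against WT ranged from 8118 to 10351 over the alternatives and from 9070 to 9221 when 1 KD or WT library was left out, with 2285 to 2419 genes at least 2-fold higher and 820 to 1028 at least 2-fold lower. Genes called against the KO mean ranged from 9782 to 10197, the hydropathy class difference (main value 1.47) from 1.45 to 1.48 and Phf6 from -1.98 to -1.90 over the same left-out libraries. The replicate block gave 9345 calls, 2325 and 964 at least 2-fold higher and lower, and -1.97 for Phf6. Same-numbered KD and WT libraries deviated together with correlations of only 0.056, 0.024 and 0.058, so the numbers were not read as pairs. Scaling by library totals left 341 genes at least 2-fold lower in place of 966. With the hydropathy trend removed, 1001 genes were at least 2-fold higher and 604 lower, and the class difference was 0.21; with length and GC content also removed these were 974, 547 and 0.20. Differences near 0 changed sign. Ebf1 became 0.04 with DESeq2's size factors or its Wald test, 0.22 with library totals, 0.03 with 6 libraries, 0.00 with the block, 0.06 without the RNAs lacking a tail, -0.04 to 0.07 with 1 library left out, and 0.14 and 0.18 with the hydropathy trend or all 3 trends removed. Lef1 became -0.00 with no filter and ranged from -0.01 to 0.11 with 1 library left out, but was called at 0.45 and 0.33 with the hydropathy trend or all 3 trends removed, and Pax5 became 0.09 with the hydropathy trend removed. Cd24a became 0.27 with all 3 trends removed. What causes the trend was not tested. Removing a trend fitted to these same differences has to shrink the class difference, so it is no test of a cause. The labels name no control hairpin, the culture origin of the replicates is unknown, and the build is given without its annotation. These gaps limit what can be read from the KD group.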

Other observations

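Further receptor families were higher. All 12 tetraspanins rose, with a median log2 difference of 1.32 (6 rose and 1 fell with the hydropathy trend removed), among them Cd151, which associates with laminin-binding integrins, at 26.3 to 27.5 CPM in WT and 96.8 to 102 CPM in KD. Of 14 Toll-like receptor genes 10 rose and 3 fell (median 1.38; 7 and 2 with the trend removed), with Tlr9, a sensor of DNA, at 7.28, 6.09 and 8.29 CPM in WT and 29.5, 29.5 and 29.1 CPM in KD. Of 17 Notch pathway genes 12 rose and 2 fell (median 0.77; 9 and 1 with the trend removed), with Notch2, which directs marginal zone B cells, higher by 1.93. Of 9 genes of the insulin-like growth factor axis 7 rose and 2 fell (6 and 2 with the trend removed, median 0.96), although 6 of them code for proteins below a hydropathy of 1.6. Fatty acid synthesis gave 7 higher and 4 lower of 13 (6 and 6 with the trend removed), and Srebf1, its membrane-bound transcription factor, rose by 1.62.

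The remaining lists differed among themselves. Over all genes tested 37.2% were higher and 40.4% lower, and below a hydropathy of 1.6 these shares were 21.5% and 55.0%. The counts for Rab GTPases, Myc and G1 control, JAK-STAT targets and p53 targets lie near these shares. So does the count of Bcl2 family genes that fell. Interferon-stimulated genes gave 11 higher and 6 lower of 26 (median 0.12), and genes of ERK feedback 6 higher and 3 lower of 16 (10 and 3 with the trend removed). JAK-STAT targets gave 5 higher and 8 lower of 20 (median -0.03, but 0.19 with library totals), with the survival kinase Pim2 lower by 0.83. Of 15 Bcl2 family genes none rose and 8 fell (median -0.21, but 0.01 with library totals), with the death agonist Bid lower by 0.70. Of 18 p53 targets 3 rose and 8 fell (median -0.14, but 0.08 with library totals). Genes of Myc and G1 control gave 7 higher and 13 lower of 24, with the kinase Cdk4 lower by 0.84. Mature and activated B-cell markers gave 11 higher and 3 lower of 16 (median 1.16; 7 and 4 with the trend removed). Translation initiation and elongation factors fell at 18 of 19 genes (median -0.94), with Eef1a1 at 14580, 14270 and 13440 CPM in WT and 6854, 6800 and 6843 CPM in KD. Rab GTPases gave 8 higher and 20 lower of 42 (median -0.17, but 0.05 with library totals), and 41 of the 42 are below a hydropathy of 1.6. Host genes of small nucleolar RNAs gave 8 higher and 2 lower of 14 (median 0.36), with Gas5 higher by 0.86. Of 7 genes at the loci of the genotype labels 1 rose and 4 fell. Among the sex-linked genes, Kdm5d and Uty rose by 0.70 and 0.39, and Uty did not pass without WT replicate 2 (0.34, edgeR adjusted p = 0.0545).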
